A study of Mus musculus with 10 samples.

Results

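Notch receptors, their ligands and their target genes were followed in cultured aortic smooth muscle cells with and without extra Adamts7, a secreted metalloprotease that cleaves matrix proteins. The members were taken by name: the receptor genes Notch1, Notch2, Notch3 and Notch4, the ligand genes Jag1 and Dll4, and the target genes Hes1, Hey1, Hey2 and Heyl, which make 10 of the 36144 genes of the expression table, together with the footprint scores of RBPJ, HES1, HEY1 and HEY2, which make 4 of the 879 motifs. Cells came from the aortic media of male mice aged 8 weeks and were used between passages 2 and 7. RNA was measured in 3 mice labelled wild type and 3 with Adamts7 overexpression. Chromatin accessibility (ATAC-seq, which reads where a transposase can enter) was measured in 2 mice of each genotype, with 50000 cells per library. The labels name Myh11-Cre-ERT2, and Adamts7 overexpression limited to smooth muscle, for the overexpression mice alone, so the Cre driver and the extra Adamts7 cannot be told apart. This Cre follows the Myh11 promoter and acts after tamoxifen, and the tamoxifen schedule is not given here. All libraries carry the same batch label.

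Notch is a receptor cut by its own signal. A ligand of the Jagged or Delta-like family on one cell binds a Notch receptor on its neighbour, proteases of the ADAM family and then gamma-secretase cut the receptor, and the freed intracellular part enters the nucleus. There it joins the DNA-binding protein RBPJ and Mastermind coactivators and turns on the HES and HEY genes, which encode helix-loop-helix repressors. In the arterial wall NOTCH3 is known as the receptor of smooth muscle cells and pericytes, NOTCH1, NOTCH4 and DLL4 are known from endothelium, and JAG1 passes signals between the layers.

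The promoters show where these factors could meet the members themselves. RefSeq promoter windows (build GRCm38.p6, 300 bases each) were found for 7 of the 10 genes: Notch1, Notch2, Notch3, Notch4, Jag1, Dll4 and Hey2. The sequence CGTGGGAA, the long form of the RBPJ site, occurred in the Hey2 window alone among the 7, against 0.734% of all 32851 windows, and it occurred there at 2 places, which is the case for 0.0122% of windows. One match, on the opposite strand, lay 207 to 200 bases before the start of the gene, and the other ran from 5 bases before the start to the third base after it. The Hey2 sequence is shown because it is the member window with these matches, 5′ to 3′ on the gene's strand and up to the base before the start, with the RBPJ matches in capitals (the last capitals are the first bases of the second match). A stretch of 30 bases shows the second match whole.
Hey2, chr10:30842784-30843033, minus strand: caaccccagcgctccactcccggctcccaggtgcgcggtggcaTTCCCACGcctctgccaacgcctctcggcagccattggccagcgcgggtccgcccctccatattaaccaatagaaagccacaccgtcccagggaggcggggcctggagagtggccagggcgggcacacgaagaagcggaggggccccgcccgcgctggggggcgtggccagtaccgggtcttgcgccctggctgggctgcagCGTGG
Hey2 second match: ctgggctgcagCGTGGGAAagaacctccag

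Sites of the kind bound by HES and HEY proteins were searched on both strands. The first form, CACGTG, was in none of the 7 windows, against 7.15% of all windows. The second form, CACGCG, was in those of Jag1, Dll4 and Notch2, against 9.27% of all windows, and the third form, CACNAG, was in those of Notch1, Notch2, Notch3 and Dll4, against 42.5%. The short RBPJ site, TGGGAA, which is part of the long one, also occurred in the Hey2 window alone of the 7, and in 25.6% of all windows. The Notch4 window held none of the strings searched. The windows of the 2 ligand genes are shown because both hold CACGCG, with all HES and HEY type matches in capitals.
Jag1, chr2:137116521-137116770, minus strand: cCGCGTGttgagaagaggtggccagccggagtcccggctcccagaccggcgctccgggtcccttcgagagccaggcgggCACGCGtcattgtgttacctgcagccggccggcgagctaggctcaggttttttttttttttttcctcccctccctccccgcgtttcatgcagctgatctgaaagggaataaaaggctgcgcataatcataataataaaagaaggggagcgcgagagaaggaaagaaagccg
Dll4, chr2:119325534-119325783, plus strand: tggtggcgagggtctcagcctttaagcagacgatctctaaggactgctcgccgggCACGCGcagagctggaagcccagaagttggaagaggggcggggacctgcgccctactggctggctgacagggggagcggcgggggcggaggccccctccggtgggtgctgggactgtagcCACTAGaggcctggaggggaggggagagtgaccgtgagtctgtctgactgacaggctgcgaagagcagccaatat
A match of letters is a description of the window and says nothing of binding in these cells.

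RNA is given as TPM, a share of a library's transcripts that is corrected for gene length and so can be compared between genes. Read numbers cannot be recovered from TPM, and the depth behind each value is unknown. Adamts7 itself stood at 6.08 to 8.20 TPM in wild type, against 75.8 to 98.7 TPM in overexpression libraries (limma adjusted p = 0.000357). Its level thus went with the genotype label in all 6, although the overexpression RNA titles open with the letters WT. Markers of several cell types were present. In wild type the 16 endothelial markers, led by Emcn and Cdh5, summed to 5242 to 5799 TPM and the 12 smooth muscle markers, led by Cald1 and Acta2, to 4104 to 4223 TPM; in overexpression libraries the sums were 2673 to 4424 and 4720 to 6340 TPM. The 15 macrophage markers, led by Lyz2 and C1qa, summed to 471 to 701 TPM in wild type, against 1128 to 3597 TPM in overexpression libraries. Every marker of these 3 lists was above 0 in every library, so the cultures labelled as smooth muscle also held RNA of endothelial and myeloid markers. In such bulk libraries, fewer cells of a type and less RNA per cell cannot be told apart. On the first axis of a principal component analysis, overexpression replicate 3 (-0.67) stood nearer to wild type (-20.3 to -16.8) than the other two did (18.6 and 39.4), so results are also given without it.

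Jag1 was the most abundant member in both genotypes and Heyl the least. In wild type the order of mean levels was Jag1 at 98.05 TPM, Notch1 at 40.7, Notch4 at 28.6, Hey2 at 28.0, Hes1 at 22.2, Notch2 at 8.29, Notch3 at 7.14, Dll4 at 2.38, Hey1 at 1.32 and Heyl at 0.816 TPM. The libraries of Notch1 and Notch4, and those of Notch4 and Hey2, overlapped; the other neighbours in this order did not. In overexpression libraries Hes1 came second, at 33.0 TPM, its libraries overlapping those of Hey2 at 29.8 TPM, which overlapped those of Notch1 at 28.1 TPM. The receptor known for smooth muscle, Notch3, was thus lower than Notch1 and Notch4 in every library of both genotypes.

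**Figure D1:**
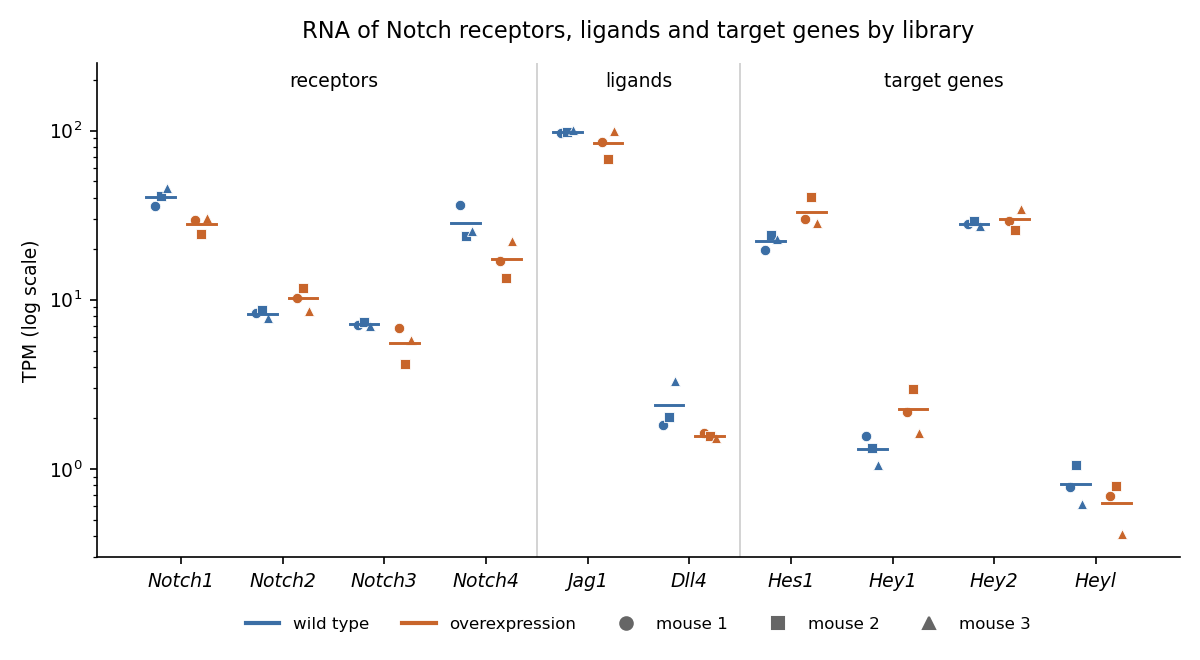
TPM of the 10 members in each library on a log axis, with wild type in blue and overexpression in orange, a marker shape for each mouse number and a bar at each mean. Notch1, Notch3, Notch4 and Dll4 lie lower and Hes1 and Hey1 higher in all 3 overexpression libraries than in any wild-type library.

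Among receptors, Notch1, Notch3 and Notch4 were lower and Notch2 was higher on average in overexpression cultures. Genes are given with their Ensembl identifier and their RefSeq position in GRCm38.p6, the assembly of mm10. Notch1 (ENSMUSG00000026923.15, chr2:26457902-26503822), which drives arterial identity in endothelium, was at 35.6, 41.0 and 45.6 TPM in wild-type replicates 1, 2 and 3 and at 29.5, 24.6 and 30.3 TPM in overexpression replicates 1, 2 and 3. The 2 groups did not overlap, and the log2 fold change was -0.52 ± 0.12 (SE; limma adjusted p = 0.131). Notch4 (ENSMUSG00000015468.14, chr17:34564286-34588543), a receptor found mainly in endothelium, was at 36.5, 23.8 and 25.4 TPM in wild type, and at 16.9, 13.4 and 22.2 TPM in overexpression libraries. Its groups did not overlap either, although overexpression replicate 3 lay just under wild-type replicate 2, and the log2 fold change was -0.68 ± 0.21 (SE; limma adjusted p = 0.168).

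Notch2 (ENSMUSG00000027878.11, chr3:98013538-98150367), a receptor of smooth muscle, endothelium and myeloid cells, was at 8.30, 8.73 and 7.83 TPM in wild type, and at 10.3, 11.8 and 8.61 TPM in overexpression libraries. Its groups overlapped through overexpression replicate 3, and the log2 fold change was 0.26 ± 0.13 (SE; limma adjusted p = 0.296). Notch3 (ENSMUSG00000038146.8, chr17:32120820-32166896), the receptor known for smooth muscle, was at 7.08, 7.37 and 6.98 TPM in wild type, and at 6.79, 4.15 and 5.80 TPM in overexpression libraries. It was lower in all 3 of them, most in replicate 2, with a log2 fold change of -0.33 ± 0.16 (SE; limma adjusted p = 0.311). No receptor passed the threshold of 0.05.

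The make-up of the receptor RNA also differed in its means. Shares of one sum depend on each other. The Notch2 share is therefore also higher where Notch1 and Notch4 are lower, and Notch2 TPM itself overlapped between the groups. The 4 receptors summed to 84.7 ± 3.43 TPM in wild type, against 61.4 ± 6.73 TPM in overexpression libraries (SD, n = 3 each), with no overlap. Notch2 made up 9.80% ± 0.87 of this sum in wild type and 17.0% ± 4.55 in overexpression libraries (SD, n = 3 each), higher in all 3. A two-sided exact permutation test gave p = 0.1, the smallest that 3 against 3 can give, and 0.5 after Benjamini-Hochberg adjustment over the 10 shares tested. Notch1 held 48.2% and 45.8% of the receptor sum, Notch4 33.6% and 28.2%, and Notch3 8.44% and 9.03%, all with overlapping libraries.

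Both ligand genes were lower on average. Jag1 (ENSMUSG00000027276.7, chr2:137081451-137116520), the Jagged ligand through which endothelium and neighbouring smooth muscle cells signal, was at 96.1, 97.9 and 100.1 TPM in wild type, and at 85.8, 68.1 and 98.9 TPM in overexpression libraries. Wild-type libraries were close together, while overexpression replicate 3 lay among them and replicate 2 well below (log2 fold change -0.23 ± 0.13 SE; limma adjusted p = 0.349). Dll4 (ENSMUSG00000027314.6, chr2:119325784-119335666), the Delta-like ligand of arterial and sprouting endothelium, was at 1.82, 2.02 and 3.29 TPM in wild type, and at 1.63, 1.56 and 1.53 TPM in overexpression libraries. All 3 overexpression values were lower, close to each other and just under the lowest wild-type value (log2 fold change -0.37 ± 0.20 SE; limma adjusted p = 0.348). Jag1 made up 97.6% of the summed TPM of both ligands in wild type and 98.1% in overexpression libraries.

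Target genes were higher on average in overexpression cultures, apart from Heyl. Hes1 (ENSMUSG00000022528.8, chr16:30065357-30067796), a repressor that many signals besides Notch also induce, was at 19.7, 24.2 and 22.8 TPM in wild type, and at 29.8, 40.7 and 28.4 TPM in overexpression libraries. It was 1.48 times as abundant on average, without overlap of the groups, and the log2 fold change was 0.54 ± 0.15 (SE; limma adjusted p = 0.145). Hey1 (ENSMUSG00000040289.8, chr3:8663359-8667038), a HEY repressor of arterial endothelium, was at 1.56, 1.33 and 1.06 TPM in wild type, and at 2.16, 2.95 and 1.64 TPM in overexpression libraries. Its groups also stood apart, narrowly between overexpression replicate 3 and wild-type replicate 1 (log2 fold change 0.47 ± 0.20 SE; limma adjusted p = 0.257).

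Hey2 (ENSMUSG00000019789.9, chr10:30832359-30842783), which marks the arterial lineage in endothelium and smooth muscle, was at 27.8, 29.1 and 27.2 TPM in wild type, and at 29.4, 25.7 and 34.5 TPM in overexpression libraries. Its log2 fold change was 0.08, with a 95% interval of -0.18 to 0.33, and -0.03 without overexpression replicate 3. Heyl (ENSMUSG00000032744.4, chr4:123233556-123249870), a HEY gene known downstream of NOTCH3 in smooth muscle, was at 0.778, 1.05 and 0.616 TPM in wild type, and at 0.695, 0.790 and 0.413 TPM in overexpression libraries. Its mean over the 6 libraries was below the filter of 1 TPM, so it was left out of the fit, and an exact permutation test gave p = 0.5. The 4 target genes summed to 52.4 ± 2.91 TPM in wild type, against 65.7 ± 4.08 TPM in overexpression libraries (SD, n = 3 each), with no overlap. Hes1 made up 42.4% of this sum in wild type and 49.96% in overexpression libraries, Hey2 53.5% and 45.7%, and Hey1 2.53% and 3.41%, with overlapping libraries. Heyl made up 1.55% and 0.961%, lower in all 3 (two-sided exact permutation p = 0.1, adjusted 0.5), while its own TPM overlapped between the groups. The receptor sum and the target sum thus differed in opposite directions between the genotypes. The receptor sum mostly followed its most abundant genes, Notch1 and Notch4, and the target sum mostly followed Hes1. Notch1 (means 40.7 and 28.1 TPM) and Notch4 (28.6 and 17.5 TPM) were lower, while Notch2 was higher. Among targets Hes1 (22.2 and 33.0 TPM) made most of the difference, while Hey2 differed little and Heyl was lower on average. Of all single genes tested, 12.9% lay wholly below and 14.3% wholly above wild type.

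**Figure D2:**
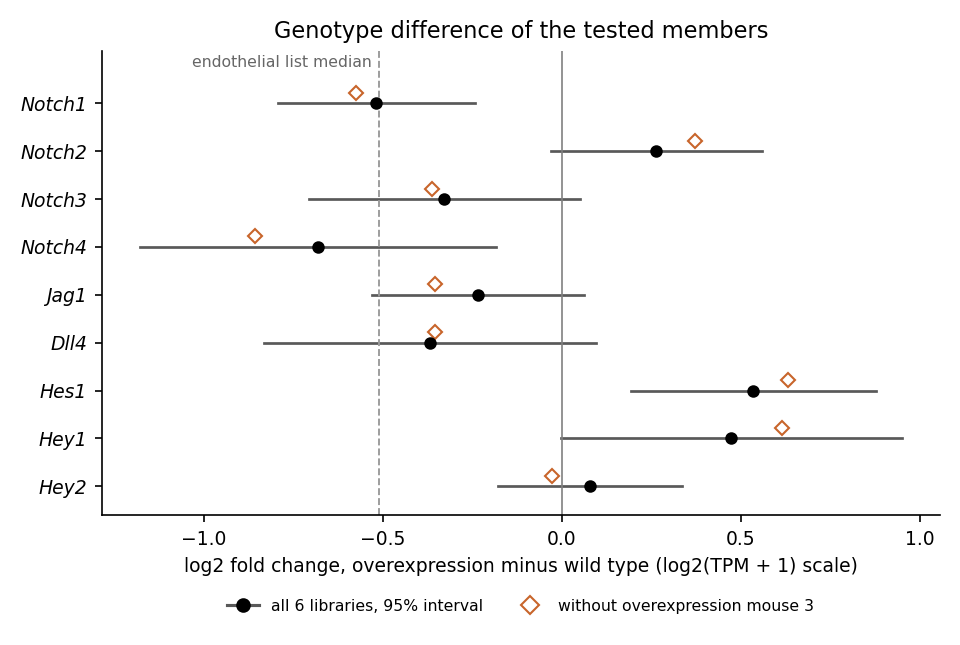
Log2 fold change of the 9 tested members on the log2(TPM + 1) scale, with the 95% interval of the limma fit (black) and the value without overexpression mouse 3 (open diamonds); the dashed line is the median of the endothelial marker list, -0.51. Intervals of Notch1 and Notch4 lie below 0 and that of Hes1 above 0, before adjustment over all genes.

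Of the 10 members, 9 were tested and 0 passed limma's threshold of an adjusted p of 0.05, where 0.0152% of all 13131 genes tested did. At an unadjusted p under 0.05 stood 1 member on the higher side (Hes1) and 2 on the lower side (Notch1 and Notch4), beside 10.6% and 8.94% of all genes. Every overexpression library lay above every wild-type library for 2 tested members (Hes1 and Hey1) and below for 4 (Notch1, Notch3, Notch4 and Dll4), beside 14.3% and 12.9% of all genes. The median log2 fold change was -0.23 over the 9 and -0.01 over all genes tested. A fold on this scale understates the change of low genes such as Dll4 and Hey1.

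Without overexpression replicate 3, no member passed, beside 6.3% of all genes, but 3 came close: Notch1 had a log2 fold change of -0.57 (limma adjusted p = 0.0502), Notch4 -0.86 (0.0515) and Hes1 0.63 (0.0573). With libraries weighted by quality, 4 members passed limma's threshold, Notch1 and Notch4 lower and Hes1 and Hey1 higher, beside 20.8% of all genes. That fit rests mainly on overexpression replicate 1, which had a weight of 5.66 against 0.278 and 0.486 for the other two.

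Within the overexpression group, 6 of the 10 members (Notch1, Notch2, Notch4, Jag1, Hes1 and Hey1) were farthest from wild type in replicate 2 and nearest in replicate 3. This order was not particular to them. The first principal component over all genes tested, with 51.4% of the variance, had it too (18.6, 39.4 and -0.67 in overexpression replicates 1, 2 and 3). The share of all genes with this order was not counted. Relative to the wild-type mean of log2(TPM + 1), Notch4 stood at -0.70, -1.02 and -0.33 in overexpression replicates 1, 2 and 3, Jag1 at -0.19, -0.52 and 0.01, and Hes1 at 0.41, 0.85 and 0.35. The median of the 16 endothelial markers stood at -0.45, -0.92 and -0.26 in the same libraries, the same order of libraries as in those 6 members. Of the 3 tested pericyte markers, Cspg4, at 28.6, 51.8 and 21.5 TPM, had this order too. Rgs5, named after its values were seen, also had it, at 13.0, 64.25 and 5.70 TPM. The most abundant, Mcam, was lowest in replicate 2, at 124, 113 and 125 TPM. The smooth muscle list was mixed: its median stood at 0.40, 0.23 and 0.17, whereas Acta2, at 1566, 2335 and 1393 TPM, and the summed TPM of the list were highest in replicate 2. The median of the 15 macrophage markers stood at 2.18, 2.00 and 0.66. Fits with the endothelial and macrophage markers as covariates are given below. They cannot tell the part of these markers in the members' values from that of genotype. The other marker lists were not fitted. Dll4 kept no such order, at -0.33, -0.37 and -0.39, nor did Hey2, at 0.07, -0.12 and 0.29.

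**Figure D3:**
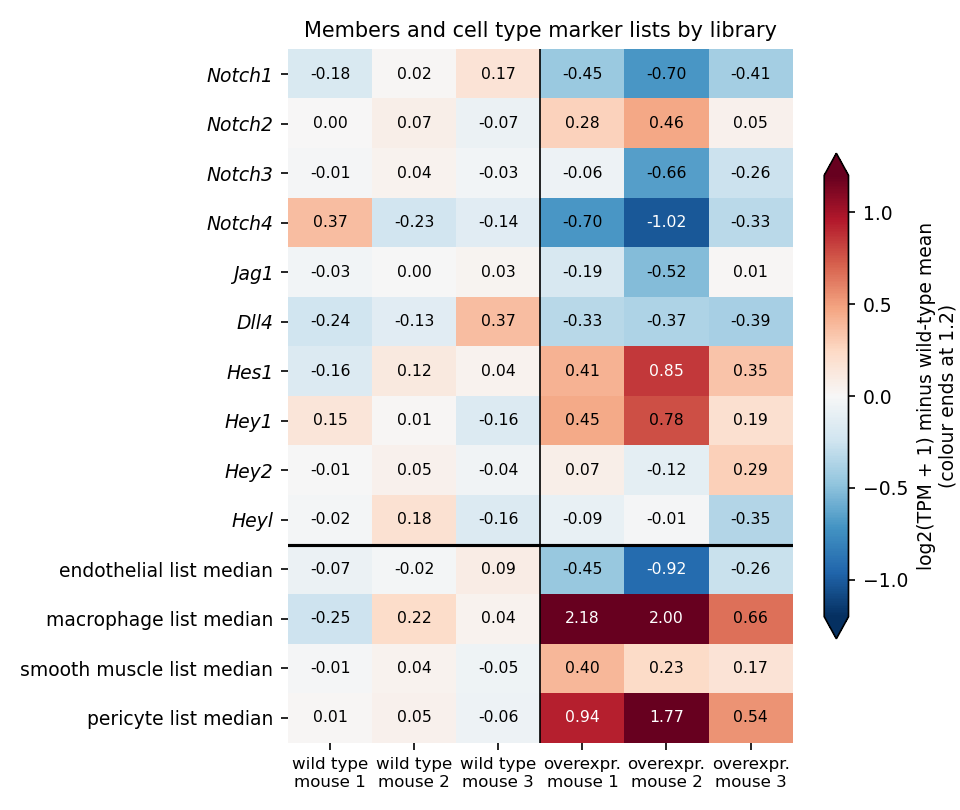
Difference of log2(TPM + 1) from the wild-type mean in each library, for the 10 members (top) and for the medians of the tested genes of 4 cell type marker lists (bottom). Overexpression mouse 2 has the lowest values of Notch1, Notch3, Notch4 and Jag1 and of the endothelial list, and the highest of Hes1 and Hey1 and of the pericyte list, whose median over 3 tested genes is the value of Cspg4.

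In all, 15 of 16 endothelial markers were lower and 15 of 15 macrophage markers higher in their mean log2 values, with medians of -0.51 and 1.61, and 0 of them passed limma's threshold with all libraries (at an unadjusted p under 0.05 stood 13 lower and 15 higher, beside 8.94% and 10.6% of all genes). Without overexpression replicate 3, 7 of the 16 endothelial markers passed as lower and 15 of the 15 macrophage markers as higher, beside 6.3% of all genes. With the mean of the endothelial markers as a covariate, the log2 fold change of Notch1 was -0.22 (limma adjusted p = 0.717), that of Notch4 -0.26 (0.836), that of Notch3 -0.02 (0.990) and that of Hes1 0.18 (0.809), while Notch2, Jag1 and Hey1 had the opposite sign, at -0.06, 0.18 and -0.03. Dll4 was at -0.23 and Hey2 at 0.37 with this endothelial covariate. With the mean of the macrophage markers instead, Notch4 was at 0.02, Notch2 at -0.06 and Jag1 at 0.10. Notch1 was then at -0.44, Notch3 at -0.30, Dll4 at -0.47, Hes1 at 0.20, Hey1 at 0.12 and Hey2 at 0.37. The limma adjusted p with the macrophage covariate was 0.9997 for each of these members. Each covariate differs with genotype itself, so its part and that of the genotype cannot be told apart in 6 libraries.

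Other genes of the pathway were described by role, from a list of 68 genes of which 59 were tested. Of these, 0 passed limma's threshold. At an unadjusted p under 0.05 stood 4 of the 59 on the higher and 7 on the lower side, beside 10.6% and 8.94% of all genes. Of the 59, 5 lay wholly above and 11 wholly below wild type, beside 14.3% and 12.9% of all genes. On the higher side both shares were under those of all genes, and on the lower side both were over them. These differences in share were not tested. Of all 13131 genes tested, the log2 fold change was above 0 for 6340 and below 0 for 6791. For the 59 it was above 0 for 18 and below 0 for 41, with a median of -0.08. The median was thus nearer that of all genes than the members' was.

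Genes that make and mature the receptor had list medians near 0, though single genes such as Furin and Lfng differed more. In the receptor cleavage list, 0 of 10 passed and the median was -0.05. Furin, the convertase that makes the first cut of the receptor, was at 101, 102 and 92.1 TPM in wild type, against 80.6, 77.1 and 75.6 TPM in overexpression libraries, lower in all 3 (log2 fold change -0.33 ± 0.07 SE; limma adjusted p = 0.128). Of the gamma-secretase parts, Aph1b had -0.31 and Ncstn, the most abundant gene of the list, -0.13, both with overlapping libraries. Among the 5 glycosylation genes, 2 Fringe enzymes, which tune the choice of ligand, differed in opposite directions: Lfng had 0.41 and Mfng -0.31 (limma adjusted p = 0.232 and 0.214), while Poglut1 had -0.08. Of the 3 other ligand genes tested, all low, Jag2 had -0.28 and Dlk1 -0.38.

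Among 11 tested genes of ubiquitination and endocytosis, which move ligands and receptors through the cell, the median was 0.04. Dtx4, a Deltex ubiquitin ligase, was at 0.707 ± 0.0953 TPM in wild type, against 1.49 ± 0.507 TPM in overexpression libraries (SD, n = 3 each; log2 fold change 0.52, limma adjusted p = 0.246). Numbl had 0.21 and Itch 0.04. Rbpj, the DNA-binding core of the nuclear complex and its most abundant gene, was at 91.9, 90.1 and 83.7 TPM in wild type, and at 98.2, 124 and 93.8 TPM in overexpression libraries. All 3 were higher, with a log2 fold change of 0.24 ± 0.11 (SE; limma adjusted p = 0.285), while the acetyltransferase gene Kat2b had -0.32 and the median of the 8 genes of the complex was -0.03.

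Corepressor genes, whose products keep RBPJ targets silent, had a log2 fold change below 0 for 11 of 11 tested genes, beside 6791 of all 13131, with a median of -0.17 and no gene past the threshold. Several were close to 0, such as Ncor1, the most abundant, at -0.03. Spen, the large corepressor that binds RBPJ, was at 35.3, 28.5 and 30.8 TPM in wild type, and at 21.9, 16.0 and 19.1 TPM in overexpression libraries. Its groups stood well apart (log2 fold change -0.71 ± 0.13 SE; limma adjusted p = 0.128). Tle3, of the Groucho family that HES proteins recruit, had -0.23 and also did not overlap.

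Other target genes had differences of both signs. Pdgfrb, the PDGF receptor of mural cells and a known Notch target there, was at 31.2, 35.9 and 29.5 TPM in wild type, and at 53.3, 76.5 and 40.5 TPM in overexpression libraries, higher in all 3 (log2 fold change 0.76 ± 0.21 SE; limma adjusted p = 0.148). With the endothelial covariate its value was 0.05, and with the macrophage covariate 0.09. With these 2 covariates in turn, Spen was at -0.53 and -0.63, Furin at -0.39 and -0.40, and Tle3 at -0.26 and -0.34. Lfng was at 0.90 and 0.82, and none of these passed the threshold. Genes whose sign reversed are listed at the end. Ccnd1, which encodes cyclin D1, had -0.21 ± 0.06 (SE; limma adjusted p = 0.142). Hes3 and Hes5 were listed at 0 in every library. Without overexpression replicate 3, limma called 4 of the other pathway genes, a share near the 6.3% of all genes: Pdgfrb higher (adjusted p = 0.021), and Spen (0.0432), Nrarp (0.0329) and Gata2 (0.0164) lower. Nrarp and Gata2 are named after their values were seen. Nrarp, a feedback inhibitor that Notch itself induces, was at 63.9, 74.2 and 75.3 TPM in wild type, and at 51.1, 41.2 and 64.9 TPM in overexpression libraries; it was lower on average where Hes1 was higher. Gata2, a transcription factor gene active in endothelium, was at 131 to 135 TPM in wild type, and at 89.5, 67.3 and 117 TPM in overexpression libraries.

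**Figure D4:**
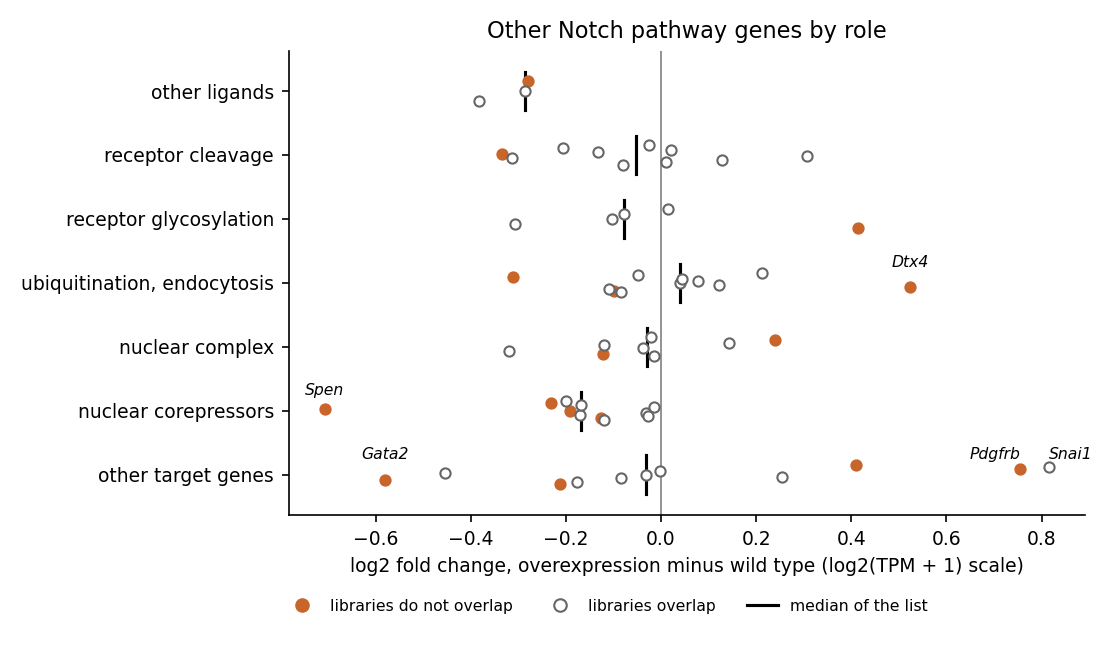
Log2 fold change of the 59 tested genes of the pathway other than the members, by role (1 point a gene, filled where the libraries of the genotypes do not overlap, with a bar at the median of each list); genes past 0.5 in either direction are named. The 11 corepressor genes lie below 0, as do 6791 of all 13131 genes, several of them close to it. The other target genes spread from Gata2 to Snai1. The Snai1 value rests mainly on overexpression mouse 2 (34.86 TPM, against 6.803 and 5.855 in mice 1 and 3), and its groups overlap.

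For the most abundant member of each role, the genes with the most similar pattern over the 6 libraries were sought among 8768 genes whose mean reached 10 TPM. For Notch1 they were Rab35 (Pearson r of log2(TPM + 1) 0.998), Maff (0.997) and Mcm5 (0.994), for Jag1 Alkbh5 (0.999), Fzd4 (0.998) and Arhgef18 (0.998), and for Hey2 Nt5c2 (0.994), Dctn4 (0.988) and Eya3 (0.985). With 6 libraries in 2 genotypes and so many genes, such values describe these libraries only, and they share each library's scaling.

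Footprint scores in the authors' deposited table showed lower values for HES and HEY motifs in overexpression cells and nearly equal ones for RBPJ. A footprint score is high where accessible DNA is locally protected, as under a bound protein. The table gives 1 value per genotype over the 2 merged mice, so there is no replicate error. In the authors' deposited table the HEY1 motif had a mean score of 0.301 in wild type and 0.267 in overexpression cells over 8336 sites, the HEY2 motif 0.303 and 0.269 over 8708 sites, and the HES1 motif 0.353 and 0.322 over 7999 sites. These 3 were lower in overexpression cells, with a difference relative to wild type of -8.67% for HES1, -11.4% for HEY1 and -11.3% for HEY2. The RBPJ motif had 0.212 and 0.217 over 93047 sites, a number that 3 motifs exceed.

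The share of sites called bound differed in the same directions. Among HEY1 sites 18.8% were called bound in wild type (95% Wilson interval 18.0% to 19.7%) and 15.9% (15.2% to 16.7%) in overexpression cells. For HEY2 the shares were 19.4% and 16.0%, and for HES1 26.9% (25.9% to 27.9%) and 22.8% (21.8% to 23.7%). For RBPJ they were 9.07% (8.89% to 9.26%) and 9.37% (9.18% to 9.56%). The intervals cover the counting of sites in pooled data, not the spread between mice.

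Set among all motifs, HEY and HES stood near the low end. In the authors' deposited table, where the sign is given here as overexpression minus wild type, the change score was -0.28 for HEY1, -0.27 for HEY2, -0.19 for HES1 and 0.08 for RBPJ. It was lower than 0 for 3 of the 4 Notch motifs, beside 38.1% of the 879 motifs, whose median was 0.11. In all, 21 motifs had a lower value than HEY1, 24 than HEY2 and 62 than HES1, whereas 408 had a lower value than RBPJ. Relative to that median RBPJ was at -0.03. Of the 57 motifs with a wild-type score from that of HEY1 to that of HES1, 35 were lower in overexpression, with a median of -0.04. These 57 include HEY1, HEY2 and HES1 themselves and the similar HES2 motif. The authors' deposited p-values were 8.25e-140 for HEY1, 2.35e-138 for HEY2, 8.24e-121 for HES1 and 8.24e-137 for RBPJ, but 876 of the 879 motifs had a p under 0.05, so it separates few motifs.

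**Figure D5:**
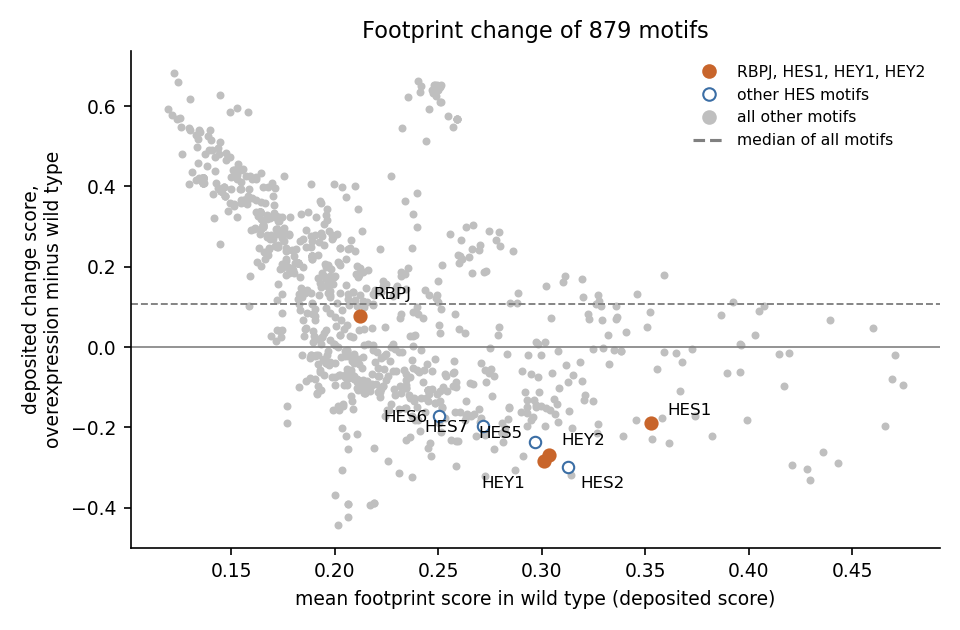
Deposited change score (overexpression minus wild type) against the wild-type mean footprint score for 879 motifs, with the 4 Notch motifs in orange, other HES motifs as open circles and the median of all motifs, 0.11, as a dashed line. HEY1, HEY2 and HES1 lie in the lower part of the cloud and RBPJ near the median.

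The HES and HEY motifs are alike in sequence, and how many of their sites are shared was not counted. HES1, HEY1 and HEY2 share 1 motif cluster of the deposited table with HES2 and HES5, and all 5 were lower in overexpression, from -0.30 for HES2 to -0.19 for HES1. Hes5 RNA was listed at 0 in every library and Hes2 RNA averaged 0.0195 and 0.0597 TPM, so similar scores came from motifs of genes with almost no RNA here. HES6 and HES7, in clusters of their own, had -0.17 and -0.20. RBPJ was alone in its cluster. Hes1 and Hey1 RNA was thus higher on average in overexpression cultures while the scores of the motifs named after them were lower, and Hey2 RNA, at 28.0 and 29.8 TPM, differed little while its motif score was lower. The footprint table merges the mice of a genotype, so the 2 readouts could not be compared mouse by mouse.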

How the data were processed

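The authors deposited TPM for each gene in each library, which the labels tie to kallisto (build mm10 per the submitters' processing notes). Its version, annotation and strand setting: not given in the sources used here. RefSeq lists other gene models that overlap Notch1, Notch2, Notch3, Dll4, Hey1 and Hey2, and reads of these were not separated here. For ATAC-seq the authors deposited, per the file headers, a table in the layout of TOBIAS BINDetect with a mean footprint signal per genotype, counts of sites searched and bound, a change score and a p-value for each motif; how peaks were called and bias corrected is not stated there.

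Genes whose mean reached 1 TPM were fitted by limma 3.58.1 (R 4.3.3) on log2(TPM + 1) values (eBayes with trend, two-sided, Benjamini-Hochberg over 13131 genes, threshold 0.05), and the fit was tested on simulated data. The simulated noise was independent between libraries, with the same spread in each. That test therefore does not cover a replicate that stands apart, such as overexpression replicate 3. Exact permutation tests used Python 3.11.15. Libraries were grouped by genotype label and numbered by mouse. Mice are separate, but cells were cultured and passages may differ. The members, lists and alternatives were chosen with earlier results of these data known. Named pathway genes are, in each list, the 2 of smallest p and the gene of highest mean TPM, named markers the 2 most abundant, and genes of like pattern the 3 with the highest correlation. Alternatives were the pseudocount, filters, scalings, quality weights, a replicate block, marker covariates and leaving out each library. Gene IDs were matched for all 10 members, and promoters came from RefSeq (GRCm38.p6).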

Additional observations from a re-analysis of the deposited data

How the results depend on the processing

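The count of members past limma's threshold, 0, was also 0 under each alternative tried except quality weights, where it was 4. For the other pathway genes it was 0 except with quality weights, 11, and without single libraries, 0 to 4, the 4 coming without overexpression replicate 3. Over all genes the count was 2, and 1 with a filter of 5 TPM, 2728 with quality weights, 1 with the endothelial covariate and 1 to 828 without single libraries. With the mouse number as a replicate block it was 1, and 0 for the members and for the other pathway genes. Equal numbers mark different mice, and their deviations from the group means had correlations of -0.02, 0.06 and 0.02, and of the wild-type libraries mouse 2 alone correlated best with its own number. Of the 10 shares within a role, 2 had libraries that did not overlap, and 2 to 6 when single libraries were left out. How often shares within other gene sets do so was not counted.

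Directions that reversed were as follows. With the endothelial covariate the log2 fold change was -0.0616 for Notch2, 0.18 for Jag1, -0.0293 for Hey1, 0.25 for Aph1b, 0.061 for Ncstn, 0.0009 for Mfng, 0.10 for Poglut1, -0.10 for Rbpj, 0.0898 for Kat2b, 0.15 for Ncor1, -0.12 for Acta2 and 0.11 for Mcam. With the macrophage covariate it was -0.0613 for Notch2, 0.0217 for Notch4, 0.10 for Jag1, 0.18 for Aph1b, 0.0481 for Ncstn, 0.0851 for Poglut1, -0.0773 for Dtx4, -0.13 for Numbl, 0.0599 for Ncor1 and -0.0964 for C1qa, and the members' median was 0.0217. Quality weights gave 0.0233 for Kat2b and 0.0623 for Ncor1. Without single libraries the values ran from -0.0276 (without overexpression replicate 3) to 0.18 for Hey2, from -0.0105 (likewise) to 0.0666 for Itch, from -0.0824 to 0.0532 (without overexpression replicate 2) for Ncor1 and from -0.0859 to 0.0078 (likewise) for Mcam, which also had 0.005 without wild-type replicate 3. The difference in share ran from -6.13 to 0.0956 points (without wild-type replicate 3) for Notch1 and from -0.2595 (without overexpression replicate 1) to 1.24 points for Notch3. The RBPJ change was -0.0296 relative to the median of all motifs. The cause was not tested. Hes1, Notch1, Notch3 and Dll4 had the same sign in every alternative that fitted them, though Notch3 was at -0.0152 with the endothelial covariate. Depth is unknown, which most limits the low genes Dll4, Hey1 and Heyl.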
